A study of Homo sapiens with 9 samples.

Results

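YAP1 and WWTR1 (the gene of TAZ) and 8 genes known as their targets or partners were followed in HepG2 cells, an established line from a human liver tumour. The 10 genes (YAP1, WWTR1, CCN1, CCN2, ANKRD1, AMOTL1, AMOTL2, LATS2, AJUBA and AXL) were taken by name from a table of 19317 genes. Each had a row, and all 10 passed the filter on low counts that left 13636 genes for testing. CCN1 is also known as CYR61 and CCN2 as CTGF. Total RNA was depleted of ribosomal RNA and sequenced from 3 groups of 3 samples. The WT samples were untreated HepG2 cells in RPMI, and the line carries no engineered change in any group. The DNL samples, a model of de novo lipogenesis, were in DMEM with insulin at 10 µg/ml and T0901317 at 10 µM, an agonist of the liver X receptors, for 1 week. The OA samples were in DMEM with oleic acid at 25 µM for 6 hours, dissolved in 11% bovine serum albumin. Serum at 10% and antibiotics at 1% were in every medium. Base medium and compound differ together between WT and each treated group, and the labels state no time for WT. DNL and OA, both in DMEM, differ in compound and time together. These differences cannot be told apart, and no group received the albumin without oleic acid. Whether the samples of a group were grown as separate cultures is not in the labels, and each p-value below reflects only how far these samples spread, which may be technical.

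YAP and TAZ are transcriptional coactivators at the end of the Hippo pathway. The kinases MST1 and MST2 activate LATS1 and LATS2, which phosphorylate YAP and TAZ and so hold them in the cytoplasm. Unphosphorylated YAP and TAZ enter the nucleus and bind TEAD transcription factors, since they have no DNA-binding domain of their own. Some of the genes they switch on, among them LATS2 and the angiomotin-like genes, restrain them in turn. In liver the pathway is known for its control of organ size. Its activity is set largely by phosphorylation and location of the proteins, which RNA levels do not measure.

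The promoters of CCN2 and ANKRD1 are shown because the RNAs of these textbook TEAD targets went opposite ways in the OA samples. The windows were searched for the TEAD core element GGAATG on both strands, which is in capitals below. Each is the reference sequence 5′ to 3′ on the gene's own strand, from RefSeq on GRCh38.p14, and stops before the first transcribed base in both RefSeq and GENCODE 29. The CCN2 stretch is chr6:131951374-131951622 and the ANKRD1 stretch chr10:90921277-90921337, both on the minus strand.
CCN2: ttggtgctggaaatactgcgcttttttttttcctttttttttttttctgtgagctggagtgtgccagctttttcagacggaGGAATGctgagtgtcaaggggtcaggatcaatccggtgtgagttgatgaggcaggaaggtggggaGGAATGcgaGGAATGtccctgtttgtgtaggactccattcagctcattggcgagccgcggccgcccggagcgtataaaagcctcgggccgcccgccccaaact
ANKRD1: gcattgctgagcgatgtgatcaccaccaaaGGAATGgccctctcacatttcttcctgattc

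CCN2 held 3 of these elements, which began 169, 104 and 95 bases before the RefSeq start (written -169, -104 and -95 when counted backwards). ANKRD1 held 2, at -220 (shown) and at -128, which lies inside the longer first exon of GENCODE 29. Of the 35116 RefSeq windows of the same length (250 bases before to 50 after a start), 14.0% held at least 1 such element and 0.128% held 3 or more. RefSeq gave windows for 9 of the 10 genes, 13 in all, with none for CCN1, and 7 of those 9 genes had the element in at least 1 window. In single copies it was in windows of YAP1, AMOTL2, LATS2, AJUBA and AXL. AMOTL2, AJUBA and AXL had it in window 2 and not in window 1, and the LATS2 match began at +10, after the start. The 14.0% is a share of windows, not of genes, so the count of genes cannot be set against it. The AP-1 core TGANTCA, found in 7.71% of all windows, was present once in ANKRD1 (-195), and the CArG box bound by SRF (1.29% of windows) was in none of the 13. The elements do not overlap each other. A match describes the letters only and is no evidence of binding.

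Levels below are CPM, counts relative to the size of the library, after edgeR's TMM scaling between libraries. Differences were tested with edgeR on all 9 libraries, and a gene counts as called where its p, adjusted by Benjamini-Hochberg over all 13636 genes, is under 0.05. Library totals ran from 7836447 to 43043316 counts, with OA replicates 3 and 1 the shallowest. AMOTL1 had 13 to 77 counts per library, and every other gene of the 10 had at least 415. The hepatocyte origin that the HepG2 label implies was checked with hepatocyte markers. In each group 8 of 8 were above 1 CPM, with summed levels of 11727 to 12204 CPM in WT, 25659.5 to 26295 in DNL and 4958 to 5617 in OA. In DNL against WT 6 were called higher and 1, HNF4A, lower (27.1% and 26.8% of all genes), and TF rose from 544 to 6279 CPM. In OA against WT 0 were called higher and 7 lower (30.4% and 29.7% of all genes). Their median log2 fold change there was -1.01, against -0.03 for all genes, and ALB fell from 6015 to 1628 CPM. Cholangiocyte markers summed to 525 to 544 CPM in WT, 988 to 1093 in DNL and 900.03 to 1058 in OA, endothelial markers to at most 6.92 in any library, and macrophage markers, mostly LYZ, to 979 to 1712. Among the cholangiocyte markers, KRT19 rose 5.98-fold in OA against WT while SOX9 fell (log2 -0.33). Since these are bulk samples, fewer cells of a type and less RNA per cell cannot be told apart.

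The OA libraries differed from each other in markers of fibroblasts and stellate cells, cell types known to express CCN2 and AXL as well. The summed level of 9 such markers was 71.2 to 77.3 CPM in WT and 90.6 to 92.7 in DNL, where ACTA2, a smooth muscle actin, made up most of it (means of 61.3 and 88.4 CPM). It was 95.5, 224 and 1045 CPM in OA replicates 1, 2 and 3. COL1A2, a fibrillar collagen chain, had no count in any WT or DNL library and measured 10.2, 41.1 and 260 CPM in OA replicates 1, 2 and 3. COL1A1 measured 19.3, 85.0 and 537 CPM there, against at most 0.990 CPM in WT and 0.706 in DNL. Of the 9 markers, 6, 6 and 7 reached 1 CPM in OA replicates 1, 2 and 3, against 3 in each WT library and 2 to 3 in each DNL library. Several OA results are therefore also given with OA replicate 1 as the lone OA sample, an alternative chosen after the data were seen. That fit takes its spread from the other groups, which cannot show how OA samples vary, so only effect sizes are given from it. In that fit YAP1 (log2 0.25), LATS2 (0.24), CCN1 (-0.79), AJUBA (-0.84) and AXL (-0.57) had the same direction against WT as with all 3 OA samples. The part of this marker RNA in the OA differences was not tested.

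**Figure D1:**
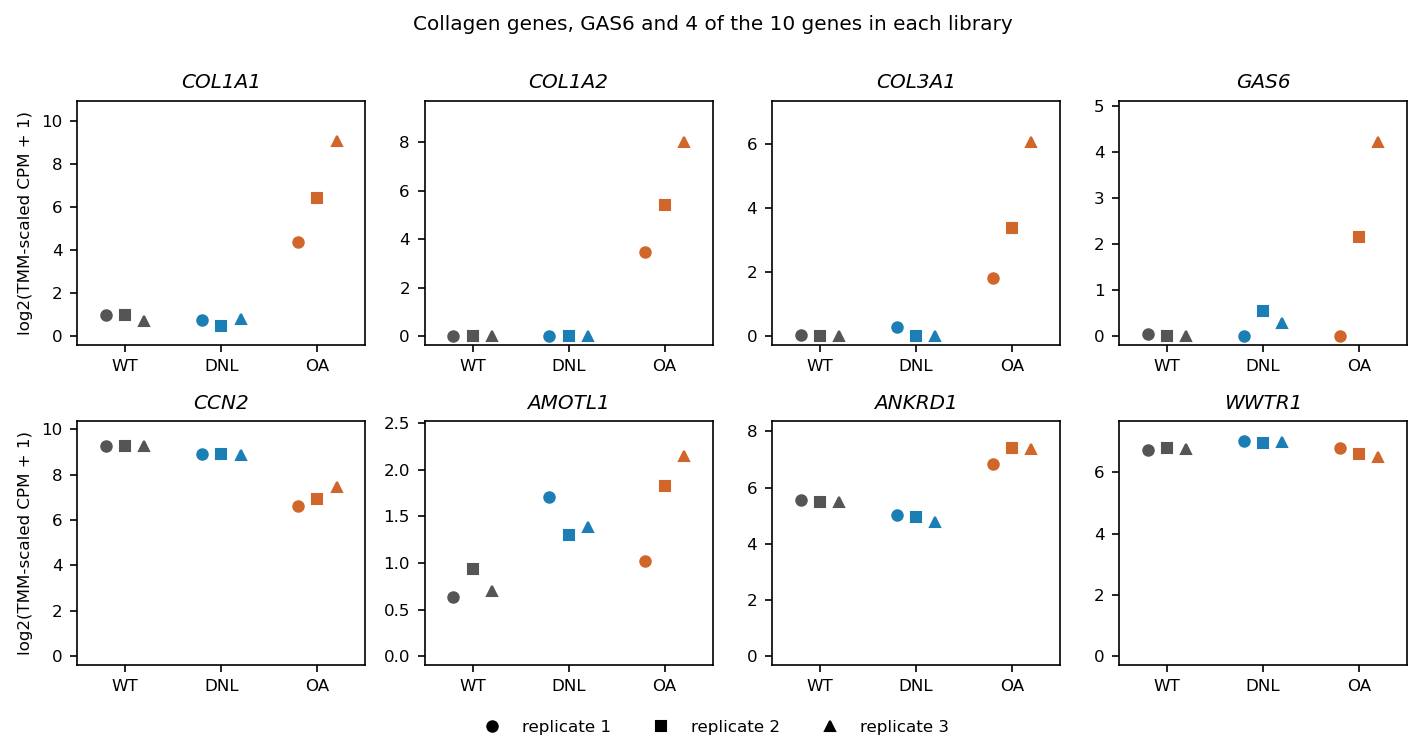
Level of 3 collagen genes, GAS6 and 4 of the 10 genes in each library, as log2(TMM-scaled CPM + 1), with a marker shape per replicate. COL1A2 was 0 in the 6 WT and DNL libraries and ran from 10.2 to 260 CPM over the OA libraries; CCN2 and AMOTL1 were lowest in OA replicate 1 and highest in OA replicate 3 within that group, and WWTR1 the reverse.

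DNL against WT asks which of these genes differed in the lipogenic medium. In DNL, 3 of the 10 were called higher (YAP1, WWTR1 and AMOTL1), where 27.1% of all genes tested were, and 5 were called lower (CCN1, ANKRD1, AMOTL2, AJUBA and AXL), where 26.8% were. Their median log2 fold change was -0.49, and that of all genes was -0.02. In OA against WT, 4 were called higher (YAP1, ANKRD1, AMOTL1 and LATS2; background 30.4%) and 4 lower (CCN1, CCN2, AJUBA and AXL; background 29.7%), with a median of -0.10 against -0.03 for all genes. In DNL against OA, 2 were higher (WWTR1 and CCN2; background 31.9%) and 6 lower (CCN1, ANKRD1, AMOTL2, LATS2, AJUBA and AXL; background 30.9%), with a median of -0.47 against 0.01 for all genes. The counts of OA against WT and of higher genes in DNL against WT lie near those shares, so the counts alone are no result about these genes. DNL and OA were compared with the same WT samples. With scaling by library totals, the calls among the 10 became 1 higher and 7 lower in DNL against WT, and the share of higher genes among all calls went from 50.3% to 32.2%. In DNL against OA they became 1 higher and 7 lower, and that share went from 50.8% to 33.9%.

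**Figure D2:**
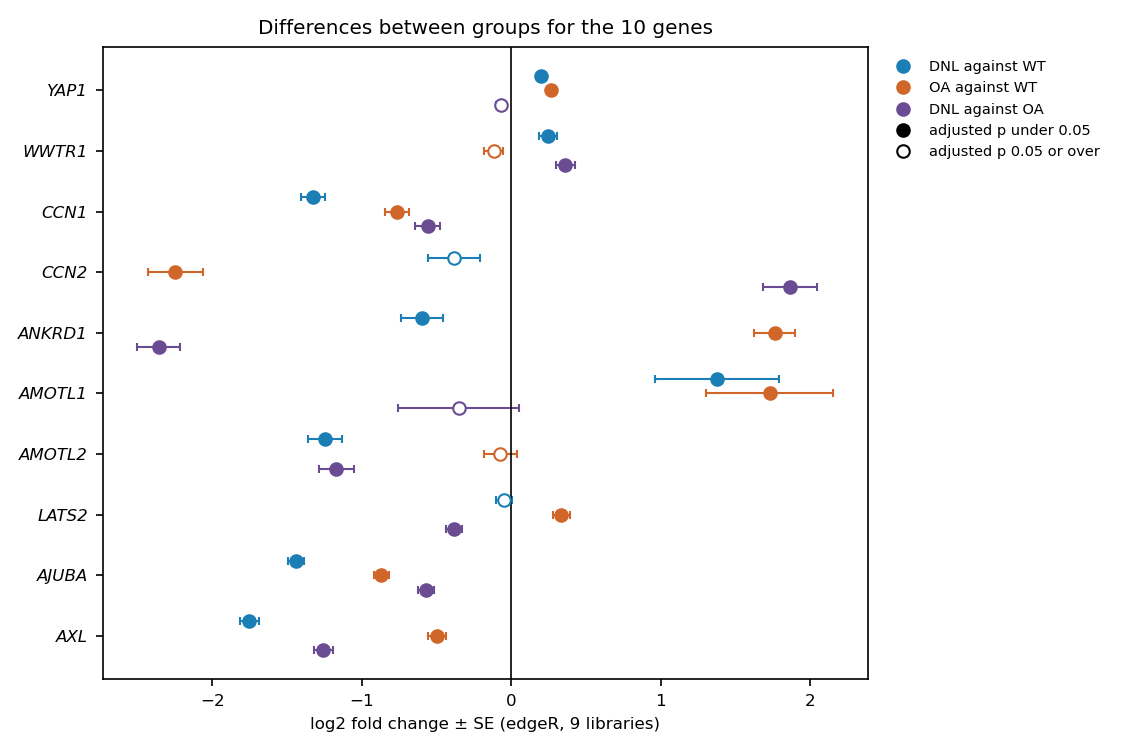
Log2 fold change ± SE of the 10 genes (edgeR, 9 libraries) in each of the 3 comparisons; filled points had an adjusted p under 0.05 and open points did not. AJUBA, AXL and CCN1 lie left of 0 in all 3 comparisons, whereas ANKRD1 lies at 1.76 in OA against WT and at -0.60 in DNL against WT.

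The coactivators themselves moved little. YAP1 (chromosome 11, 102110461 to 102233423, plus strand) measured 449, 451 and 450 CPM in WT replicates 1, 2 and 3, then 511, 520 and 521 CPM in DNL. In OA it measured 538, 545 and 544 CPM, so that no group overlapped another. YAP1 was 1.15-fold higher in DNL than in WT (log2 0.20, SE 0.0311, adjusted p = 0.000119) and 1.21-fold higher in OA (log2 0.27, SE 0.0313, adjusted p = 7.76e-06). DNL and OA differed by -0.07 on the log2 scale, a difference without overlap that was not called (adjusted p = 0.0791), though it was with RLE size factors (adjusted p = 0.0470), in DESeq2 (adjusted p = 0.0127) and, at a larger size, with library totals (log2 -0.30, adjusted p = 3.22e-06). The rise in DNL was not called with scaling by library totals (log2 0.04, adjusted p = 0.370), a scaling that moved the median of all genes to -0.18.

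WWTR1, the gene of TAZ (chromosome 3, 149517235 to 149736714, minus strand), measured 105, 110 and 107 CPM in WT and 130, 123 and 128 CPM in DNL. DNL lay above WT without overlap (log2 0.25, SE 0.0612, adjusted p = 0.00437), a call lost with library totals (log2 0.08, adjusted p = 0.312). In OA it measured 109, 96.7 and 90.4 CPM, which overlapped WT and was not called (log2 -0.12, adjusted p = 0.125). Without OA replicate 1 it was called lower (log2 -0.20, adjusted p = 0.00549), and with OA replicate 1 alone it stood at 0.03. DNL was 1.29-fold above OA (adjusted p = 0.000227), and this call too was lost with library totals (adjusted p = 0.103).

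The balance of the coactivator RNAs was read within each library, where scaling does not enter. The ratio of WWTR1 to YAP1 counts was 0.234, 0.244 and 0.238 in WT, 0.255, 0.237 and 0.245 in DNL, and 0.203, 0.177 and 0.166 in OA. The OA libraries lay below the other 6. The log2 ratio in OA was -0.39 relative to WT and that of DNL was 0.43 above OA, each with p = 0.1 in an exact two-sided permutation test, the smallest p that 3 samples against 3 allow (0.15 after Benjamini-Hochberg adjustment over the 3 comparisons). DNL differed from WT by 0.04 on the log2 scale (exact p = 0.4).

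**Figure D3:**
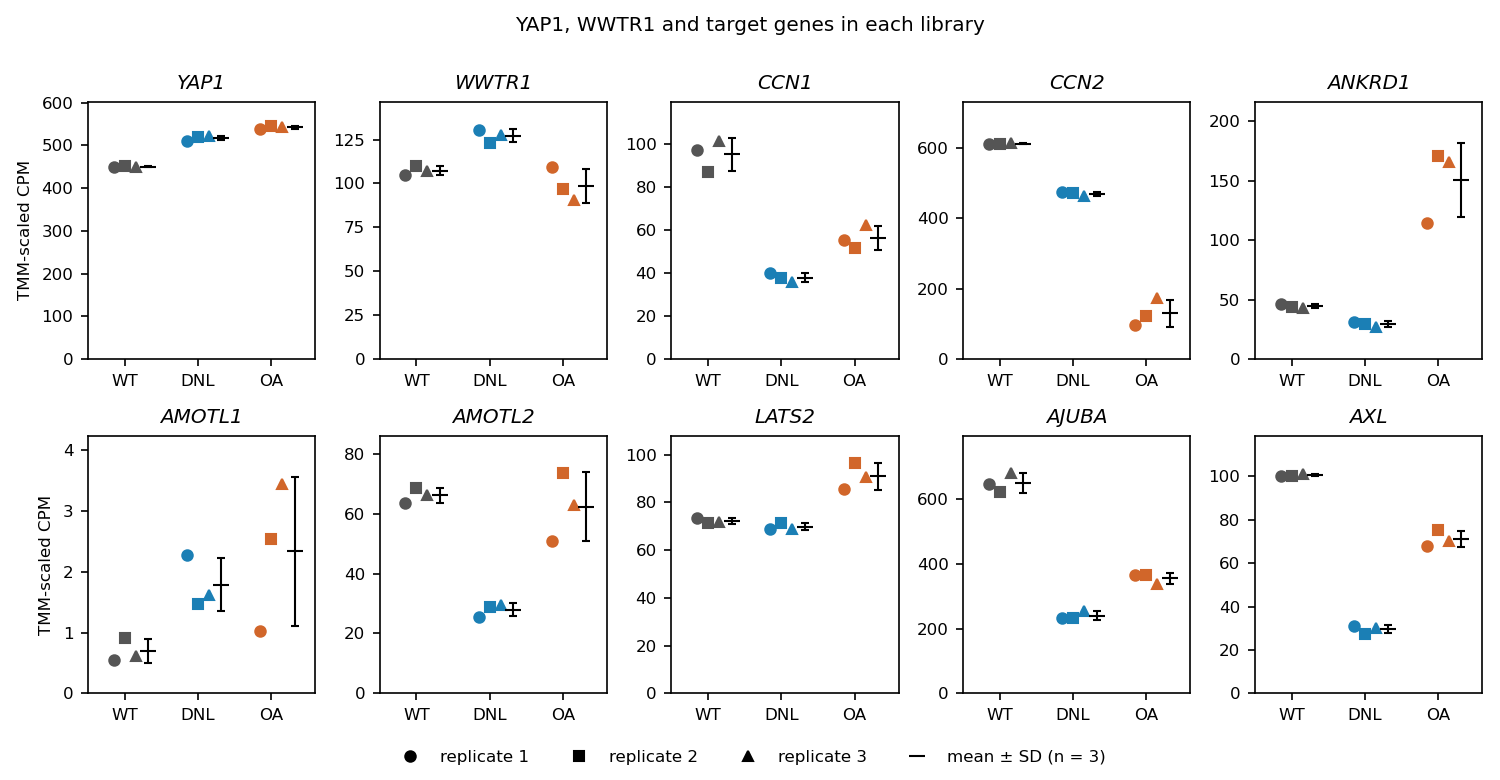
TMM-scaled CPM of the 10 genes in each library (points; shape gives the replicate), with mean ± SD over 3 samples beside each group; axes start at 0 and differ between panels. CCN2 falls to 95.9 to 173 CPM in OA while ANKRD1 stands at 115 to 171 CPM there, and AXL and AJUBA are lowest in DNL.

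CCN1 and CCN2 encode secreted matricellular proteins that bind integrins, and both are standard readouts of YAP and TAZ. CCN3 to CCN6, the rest of the family, did not pass the filter on low counts. CCN1 (chromosome 1, 85580761 to 85583962, plus strand) measured 97.3, 87.0 and 102 CPM in WT, 40.3, 37.6 and 36.1 CPM in DNL, and 55.3, 51.6 and 62.6 CPM in OA. The groups stood apart in the order WT, OA, DNL. CCN1 was 2.51-fold lower in DNL than in WT (log2 -1.33, SE 0.0811, adjusted p = 2.49e-08) and 1.70-fold lower in OA than in WT (log2 -0.77, SE 0.0810, adjusted p = 3.27e-06). DNL was also below OA (log2 -0.56, adjusted p = 6.44e-05).

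CCN2 (chromosome 6, 131948176 to 131951373, minus strand) ordered the groups differently. It measured 612, 611 and 614 CPM in WT, 474, 473 and 462 CPM in DNL, and 95.9, 122 and 173 CPM in OA replicates 1, 2 and 3. OA lay 4.75-fold below WT (log2 -2.25, SE 0.185, adjusted p = 2.99e-05) and DNL 3.65-fold above OA (log2 1.87, SE 0.183, adjusted p = 7.21e-05). Within OA, CCN2 was lowest in the library with the least collagen RNA. With that library as the lone OA sample, OA stood at -2.68 relative to WT on the log2 scale.

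DNL and WT did not overlap for CCN2, but their difference was not called in the fit of all 9 libraries (log2 -0.38, SE 0.171, adjusted p = 0.101). That fit shares 1 estimate of the spread, and the coefficient of variation of CCN2 was 30.1% in OA, against 0.313% in WT and 1.35% in DNL. The difference was called in a fit of the 6 WT and DNL libraries (log2 -0.37, adjusted p = 7.81e-07), in limma-voom (adjusted p = 0.0104), with library totals (log2 -0.55, adjusted p = 0.0301) and without OA replicate 1 (adjusted p = 0.0199) or OA replicate 3 (adjusted p = 0.000497). It was not called with RLE size factors, without the filter, in DESeq2 or with the replicate block. Nor was it called without OA replicate 2 or any single WT or DNL library (adjusted p up to 0.200 over these alternatives). The ratio of CCN2 to CCN1 counts within a library was 6.28, 7.02 and 6.03 in WT, 11.8, 12.6 and 12.8 in DNL, and 1.73, 2.36 and 2.76 in OA. Each group occupied its own range of this ratio, with OA lowest and DNL highest.

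ANKRD1 encodes a nuclear ankyrin-repeat protein induced by YAP and TAZ and by stretch in muscle. The gene (chromosome 10, 90912096 to 90921276, minus strand) measured 46.3, 43.6 and 43.4 CPM in WT, 31.4, 29.9 and 26.8 CPM in DNL, and 115, 171 and 166 CPM in OA. OA was highest and DNL lowest, with no overlap between groups. ANKRD1 rose 3.39-fold in OA against WT (log2 1.76, SE 0.137, adjusted p = 2.36e-06) and fell 1.51-fold in DNL (log2 -0.60, SE 0.141, adjusted p = 0.00535). The direct comparison put DNL 5.13-fold below OA (log2 -2.36, SE 0.143, adjusted p = 2.90e-07). With OA replicate 1 as the lone OA sample the rise was 1.37 on the log2 scale.

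The ratio of these TEAD targets, picked out after the values were seen and given without a test, set the OA libraries apart. For each CCN2 count there were 0.0757, 0.0714 and 0.0707 ANKRD1 counts in WT and 0.0664, 0.0634 and 0.0579 in DNL. In OA there were 1.20, 1.40 and 0.962, a 16.2-fold higher ratio than in WT by the mean of logs. Within OA, ANKRD1 and CCN2 were each lowest in replicate 1, and the part of the collagen RNA in the ratio was not tested.

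The genes that feed back on YAP and TAZ behaved apart from one another. LATS2 (chromosome 13, 20973032 to 21061547, minus strand), the kinase that phosphorylates both, measured 73.5, 71.3 and 71.5 CPM in WT and 69.0, 71.5 and 69.0 CPM in DNL, which overlapped and were not called (log2 -0.05, adjusted p = 0.486). With library totals, DNL was called lower (log2 -0.21, adjusted p = 0.00400). In OA it measured 85.4, 96.5 and 90.6 CPM, above the other 6 libraries and 1.26-fold above WT (log2 0.34, SE 0.0550, adjusted p = 0.000160). DNL was below OA (log2 -0.38, adjusted p = 4.87e-05).

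AMOTL2 and AMOTL1 encode scaffold proteins of the angiomotin family, which bind YAP and hold it at junctions and in the cytoplasm. AMOTL2 (chromosome 3, 134355874 to 134375479, minus strand) measured 63.6, 68.5 and 66.1 CPM in WT, 25.7, 28.7 and 29.5 CPM in DNL, and 50.7, 73.6 and 62.8 CPM in OA. It was 2.37-fold lower in DNL than in WT (log2 -1.24, SE 0.114, adjusted p = 2.52e-06) and 2.25-fold lower than in OA (adjusted p = 3.16e-06). OA overlapped WT and was not called (log2 -0.07, SE 0.111, adjusted p = 0.590), although OA replicate 1 alone stood lower (log2 -0.38).

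AMOTL1 (chromosome 11, 94706431 to 94876753, plus strand) rested on few counts. It measured 0.552, 0.914 and 0.622 CPM in WT, 2.28, 1.46 and 1.62 CPM in DNL, and 1.03, 2.54 and 3.44 CPM in OA. Both treated groups were above WT (DNL: log2 1.38, SE 0.416, adjusted p = 0.0135; OA: log2 1.73, SE 0.424, adjusted p = 0.00335), and DNL and OA overlapped (adjusted p = 0.474). Leaving out DNL replicate 1 (adjusted p = 0.0679) or WT replicate 1 (adjusted p = 0.0567) ended the DNL call. With OA replicate 1 as the lone OA sample, the difference from WT shrank to log2 0.57. AMOT, the related gene that names the family and was chosen here after its values were seen, averaged 0.139 ± 0.179 CPM in WT, 1.97 ± 0.679 in DNL and 1.44 ± 0.420 in OA (SD, n = 3).

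AJUBA encodes a LIM-domain protein that binds and inhibits LATS kinases. The gene (chromosome 14, 22971174 to 22982642, minus strand) measured 647, 622 and 682 CPM in WT, 231, 232 and 256 CPM in DNL, and 364, 366 and 336 CPM in OA. The groups stood apart in the order WT, OA, DNL. AJUBA was 2.71-fold lower in DNL than in WT (log2 -1.44, SE 0.0520, adjusted p = 1.87e-10), 1.83-fold lower in OA than in WT (log2 -0.87, SE 0.0515, adjusted p = 1.54e-08) and 1.48-fold lower in DNL than in OA (adjusted p = 6.30e-07). Its relatives in the list of pathway genes, WTIP and LIMD1 (the latter named after its values were seen), were called lower in both treated groups too: WTIP went from 42.9 ± 3.31 CPM in WT to 20.04 ± 1.91 in DNL and 30.9 ± 1.52 in OA (SD, n = 3).

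AXL, a receptor tyrosine kinase of the TAM family whose gene is a target of YAP, lies on chromosome 19 (41219203 to 41261766, plus strand). It measured 100.3, 100.2 and 101 CPM in WT, 31.3, 27.6 and 30.3 CPM in DNL, and 67.9, 75.2 and 70.2 CPM in OA. WT was highest and DNL lowest, without overlap. AXL was 3.37-fold lower in DNL than in WT (log2 -1.75, SE 0.0619, adjusted p = 1.52e-10), 1.41-fold lower in OA than in WT (log2 -0.50, SE 0.0598, adjusted p = 1.08e-05) and 2.39-fold lower in DNL than in OA (adjusted p = 1.99e-09).

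The list of TAM genes beside AXL held 2 receptors and 2 ligands. Of these 4 genes, 2 were called higher and 1 lower in DNL against WT (27.1% and 26.8% of all genes; median log2 0.67, all genes -0.02). In OA against WT 1 was higher and 3 lower (30.4% and 29.7% of all genes; median -0.34, all genes -0.03). MERTK, a receptor, rose from 103 ± 0.278 CPM in WT to 170 ± 8.66 in DNL and fell to 84.6 ± 2.28 in OA (SD, n = 3). TYRO3, the remaining receptor, fell in both, to 37.6 ± 4.42 and 39.7 ± 2.44 CPM from 52.0 ± 1.47. PROS1, a ligand, rose in DNL (log2 0.62) and fell in OA (log2 -0.98). GAS6, the ligand AXL binds, had 1 count over the WT group and measured 0, 3.46 and 17.6 CPM in OA replicates 1, 2 and 3, the order of the collagen genes. GAS6 was called higher in OA (adjusted p = 0.0129), a call that limma-voom (adjusted p = 0.194) and the fit leaving out WT replicate 1 (adjusted p = 0.0821) did not make.

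Per kilobase of exon, the levels of the genes can be set beside each other. In WT the order was CCN2 (262 CPM per kilobase), AJUBA (116), YAP1 (79.9), CCN1 (41.6), ANKRD1 (22.5), AXL (20.5), WWTR1 (17.5), LATS2 (13.1), AMOTL2 (11.9) and AMOTL1 (0.0744), and no neighbours overlapped. In DNL, CCN2 stayed first at 201 CPM per kilobase, ahead of YAP1 at 91.9 and AJUBA at 42.8. CCN1 (16.6) and ANKRD1 (14.8) overlapped there, and AXL (6.07) and AMOTL2 (5.02) were the lowest but for AMOTL1 (0.191). In OA, YAP1 was first at 96.3 CPM per kilobase, and ANKRD1 (76.2), AJUBA (63.5) and CCN2 (55.7) overlapped each other behind it. LATS2 (16.5), WWTR1 (16.2) and AXL (14.5) followed CCN1 (24.7), with WWTR1 overlapping both of its neighbours. These values use the joined exon length of protein-coding transcripts in GENCODE 29, not the length of the isoforms the cells used.

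TEAD factors, through which YAP and TAZ reach DNA, and their VGLL cofactors form a list of 8 genes, of which 6 were tested. Of these, 0 were called higher and 2 lower in DNL against WT, where 27.1% and 26.8% of all genes were (median log2 -0.16, all genes -0.02). In OA 3 were higher and 2 lower, against 30.4% and 29.7% of all genes (median 0.32, all genes -0.03). The shares called lower lie near the background. TEAD2 rose from 24.5 ± 0.704 to 42.2 ± 3.78 CPM in OA and fell to 20.04 ± 0.765 in DNL (SD, n = 3), a fall whose call was lost without DNL replicate 1 (log2 -0.25, adjusted p = 0.0528). TEAD1, named after its values were seen, rose 1.46-fold in OA (adjusted p = 3.72e-07) and measured 162 ± 1.88 CPM in DNL against 161 ± 4.79 in WT, a difference called lower with library totals (log2 -0.16, adjusted p = 0.0124). VGLL3 measured 8.13, 11.4 and 16.2 CPM in OA replicates 1, 2 and 3, above the 1.40 to 2.30 CPM of the other libraries. It rose 5.81-fold in OA against WT, and its order within OA was that of the collagen genes.

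Of 22 genes of the Hippo kinase core and its upstream regulators, 9 were higher and 8 lower in DNL against WT, where 27.1% and 26.8% of all genes were (median log2 0.05, all genes -0.02). In OA 14 were higher and 6 lower, against 30.4% and 29.7% of all genes (median 0.26, all genes -0.03). In DNL against OA 3 were higher and 13 lower, against 31.9% and 30.9% (median -0.24, all genes 0.01). The 6 lower in OA lie near the background share. FRMD6, which encodes a FERM-domain regulator upstream of the kinases, rose 2.97-fold in DNL and 2.64-fold in OA. RASSF1, a scaffold of MST kinases, fell from 19.8 ± 1.14 to 7.97 ± 0.976 CPM in DNL and rose to 30.6 ± 3.32 in OA (SD, n = 3). LATS1, the sister kinase of LATS2, and NF2, which encodes Merlin, were both named after their values were seen. LATS1 rose 1.30-fold in OA and was not called in DNL (adjusted p = 0.354), while NF2 rose in OA (log2 0.23) and fell in DNL (log2 -0.24).

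A list of 21 other published YAP and TAZ targets had 20 genes tested. In DNL against WT 5 were higher and 8 lower, where 27.1% and 26.8% of all genes were (median log2 -0.33, all genes -0.02). In OA 9 were higher and 7 lower, against 30.4% and 29.7% of all genes (median 0.09, all genes -0.03). The 5 higher in DNL and the 7 lower in OA lie near those shares. IGFBP3, which encodes a carrier of insulin-like growth factors, rose 11.1-fold in DNL, from 14.9 ± 1.43 to 167 ± 17.8 CPM (SD, n = 3). AREG, an EGF receptor ligand, fell in DNL (log2 -1.30) and rose in OA (log2 1.04). ARHGEF17 fell in both (log2 -0.75 and -1.27).

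MYOF, a membrane repair protein gene of this list, measured 65.9, 81.8 and 90.4 CPM in OA replicates 1, 2 and 3, the order of the collagen genes. It averaged 4.64 ± 0.309 CPM in WT (SD, n = 3), so that OA lay 17.0-fold above WT. NT5E, the ecto-nucleotidase CD73, fell from 108 ± 2.37 to 37.0 ± 1.33 CPM in OA and rose to 151 ± 5.43 in DNL. CCDC80, a secreted matrix protein gene, measured 7.90, 14.1 and 52.0 CPM in OA replicates 1, 2 and 3, the order of the collagen genes. Its call in OA (log2 1.83, adjusted p = 0.0474) was not stable: it was lost without the filter (adjusted p = 0.0674), in limma-voom (0.0947), in the fit of the 2 groups (0.108), with the replicate block (0.0969) and without any single DNL or WT library (0.0716 to 0.123). With OA replicate 1 alone the log2 fold change was 0.24. IGFBP3 in OA was also unstable, with its call (log2 -1.50, adjusted p = 0.0288) lost in DESeq2 (adjusted p = 0.0818), in the fit of the 2 groups (0.119), with the replicate block (0.0736), without OA replicate 2 (0.133) and without WT replicate 1, 2 or 3 (0.0751, 0.0681 and 0.0518). IGFBP3 measured 1.82, 4.28 and 12.5 CPM in OA replicates 1, 2 and 3, below the 13.3 to 15.9 CPM of the WT libraries. Its order within OA was that of the collagen genes, and the part of the fibroblast marker RNA in this difference was not tested.

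**Figure D4:**
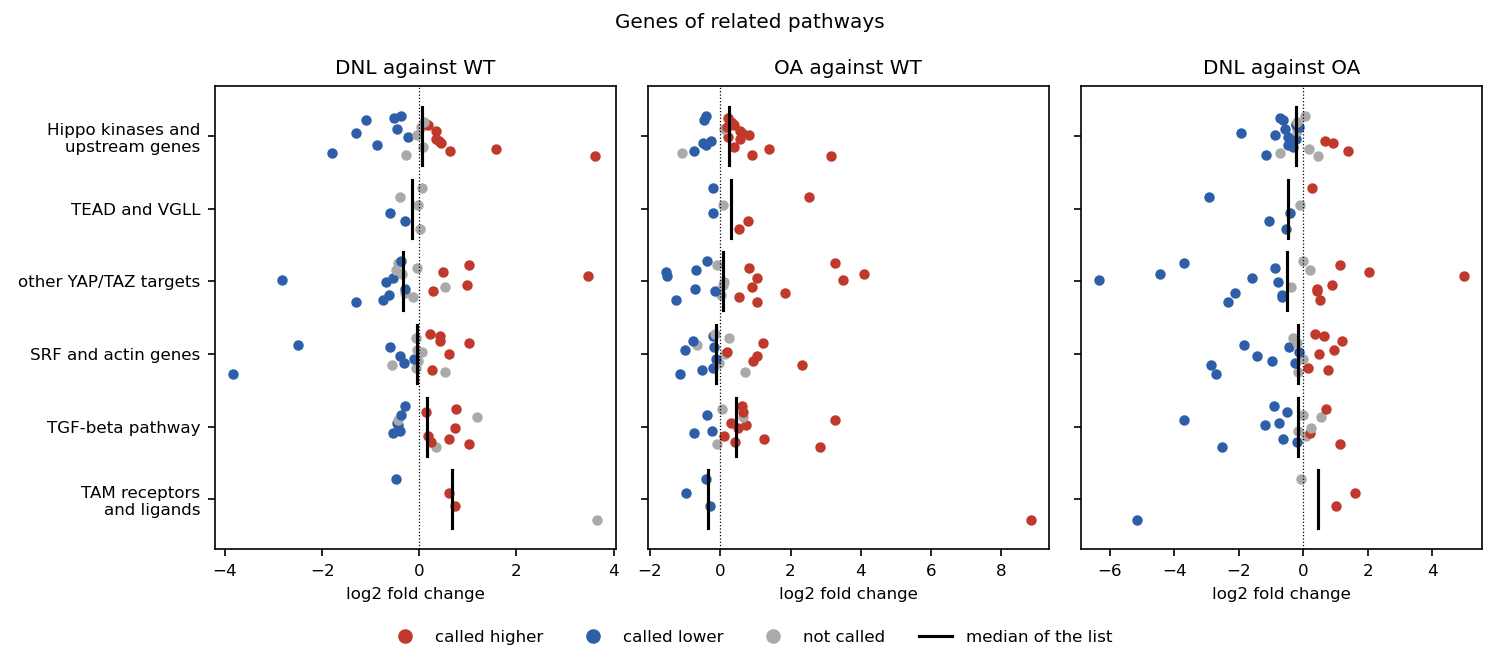
Log2 fold change of each tested gene (points) in 6 lists of related genes, per comparison; red points were called higher, blue lower and grey not called, and the bar is the list's median. Calls in both directions occur in each list in OA against WT, and some genes stand in more than 1 list.

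CCN1, CCN2 and ANKRD1 also respond to SRF with its actin-sensing coactivators and to TGF-beta. Of 19 SRF and actin genes, 6 were higher and 6 lower in DNL against WT, near the 27.1% and 26.8% of all genes (median log2 -0.04, all genes -0.02). In OA 5 were higher and 8 lower, against 30.4% and 29.7% of all genes (median -0.11, all genes -0.03). TAGLN, a smooth muscle actin-binding protein gene, fell from 131 ± 4.84 to 23.0 ± 1.46 CPM in DNL, and ACTA1 fell in DNL (log2 -3.84) and OA (log2 -1.14). MRTFA, the gene of an SRF coactivator, rose 2.08-fold in OA and fell in DNL (log2 -0.40). Of 16 TGF-beta pathway genes, 7 were higher and 6 lower in DNL, where 27.1% and 26.8% of all genes were (median 0.16, all genes -0.02). In OA 10 were higher and 3 lower, against 30.4% and 29.7% of all genes (median 0.46, all genes -0.03). The 10 include LTBP1 (4.66, 7.51 and 19.1 CPM in OA replicates 1, 2 and 3) and TGFB2 (0.395, 1.45 and 5.23 CPM), both named after their values were seen and both in the order of the collagen genes. TGFB2 is also among the 9 higher genes of the target list. SKIL, a feedback inhibitor of SMAD proteins, rose 1.53-fold in DNL and 2.38-fold in OA.

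Among tested genes of at least 5 CPM in their highest group, JUN, an AP-1 subunit, had the pattern most like ANKRD1 over the 9 libraries (Pearson r = 0.997 of log2(CPM + 0.5)), at 62.1 ± 2.03 CPM in WT, 47.8 ± 2.58 in DNL and 152 ± 17.0 in OA (SD, n = 3). SETD1A and RNF167 came next at nearly the same value (r = 0.996 each), so the ranking does not set JUN apart. MEGF6 was most like CCN2 (r = 0.994), at 119 ± 0.538, 75.3 ± 1.99955 and 20.8 ± 5.28 CPM. SARS2, a mitochondrial seryl-tRNA synthetase gene, was most like CCN1 (r = 0.993), at 19.5 ± 1.07, 8.72 ± 0.212 and 13.0 ± 0.773 CPM. These correlations run over 3 groups of 3 libraries and mostly describe the order of the group means.

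Transcripts that overlap the genes limit the reading of some counts. In GENCODE 29, antisense genes overlap exons of YAP1, WWTR1, CCN2, AMOTL1 and AXL, and 2 genes on the same strand span exons of the others, the protein-coding AL132780.3 at AJUBA and the pseudogene RPL39P5 at AMOTL2. None of these has a row in the table, and the strand setting of the counting is not given in the sources used here.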

How the data were processed

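RNA-seq of HepG2 cells was read from 1 deposited table of estimated counts per gene for 9 samples (WT, DNL and OA, 3 each, grouped by title). The authors made it with kallisto 0.48.0 after FastQC 0.11.9 on GRCh38, per the submitters' processing notes. The sources used here name neither its annotation nor its strand setting. Identifiers were matched to symbols for 19316 of 19317 rows. Estimated counts were rounded, filtered with filterByExpr, scaled by TMM and tested in 1 fit of all 9 samples with edgeR 4.0.16 (estimateDisp and glmQLFit, robust, then glmQLFTest) in R 4.3.3, with Benjamini-Hochberg adjustment over 13636 genes. The SE was derived from the F statistic. Dispersion over all genes was 0.0112, equal to a CV of 10.6%. A count of 3, the limit a count of 0 allows, was 0.0691 to 0.356 CPM across libraries, for counting error only. The procedure was tested on simulated counts of 2 groups at a time with equal spread in both, so the fit of all 9 samples with its wider OA spread was not tested. Replicates differed beyond sampling noise (chi-square per degree of freedom 5.44 to 16.6), so none was counted as a duplicate.

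The 10 genes and the lists were chosen with earlier results of these data known. Besides the 10 genes, the text may name up to 2 called genes per list, comparison and direction, the largest changes with at least 5 CPM in the higher group, and up to 3 genes most alike in pattern to CCN1, CCN2 and ANKRD1. Others are marked as named after their values were seen. COL1A1, COL1A2, ACTA2, LIMD1 and GAS6 in single libraries were also read that way. Alternatives were RLE and library-total scaling, no filter, DESeq2 1.42.0, limma-voom (limma 3.58.1), fits of 2 groups, a replicate block, each library left out, and OA replicate 1 as the lone OA sample (added later). Promoters and motifs came from RefSeq windows on GRCh38.p14, coordinates and exon lengths from GENCODE 29. One result is not reported here.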

Additional observations from a re-analysis of the deposited data

How the results depend on the processing

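For the 10 genes in 3 comparisons (30 results), 510 values under the alternatives were obtained: 492 kept both direction and side of the threshold or crossed 0 without a call on either side, 6 lost a call, 12 gained one and 0 called values changed direction. Calls among the 10 ran from 7 to 9 in DNL against WT, 8 to 9 in OA against WT and 8 in each case in DNL against OA when single libraries were left out, against 8 in each main comparison; over all genes they ran from 6468 to 7664, 7509 to 8223 and 7983 to 8534. The log2 ratio of WWTR1 to YAP1 ran from 0.01 to 0.07, -0.47 to -0.33 and 0.37 to 0.52 in the same order. Scaling by library totals ended the calls of YAP1 and WWTR1 in DNL against WT and of WWTR1 in DNL against OA, made calls of CCN2 (-0.55) and LATS2 (-0.21) in DNL against WT and of YAP1 (-0.30) in DNL against OA, and turned TEAD1 in DNL against WT to -0.16, where the main value was 0.01 and not called. With the replicate block, the calls of IGFBP3 and CCDC80 in OA against WT and of CCDC80 in DNL against OA were lost. Of 1524 values for 30 list genes named in the text, 39 lost a call and 14 gained one. The counts of values for the 10 genes and the list genes include the fit with OA replicate 1 as the lone OA sample. Its calls against OA assume a spread that 1 sample cannot show.

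Replicate numbers do not pair the samples: deviations from the group means correlated at -0.0176 to 0.0534 between same-numbered libraries of different groups and at -0.0630 to 0.0438 between others. With the replicate number as a block, 8 of the 10 genes were called in each comparison, as without it, and 7245, 8099 and 8472 genes were called over the table, against 7342, 8188 and 8557. The log2 ratio of WWTR1 to YAP1 had the same means with the block (0.04, -0.39 and 0.43). Its exact p, from flipping the signs of the differences between same-numbered libraries, was 0.75, 0.25 and 0.25. The smallest p this test allows is 0.25. Depth limits AMOTL1 most, with as few as 13 counts in a library.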
